A study of Homo sapiens with 12 samples.

Results

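The genes described here are those of the insulin-like growth factor (IGF) axis in HCT116, a human colon carcinoma cell line: the binding proteins IGFBP2, IGFBP3, IGFBP4, IGFBP5, IGFBP6 and IGFBP7, the ligand IGF2, and the receptors IGF1R and IGF2R. They are 9 of the 60648 genes of the deposited count table. They were chosen as a gene family around IGFBP3, and IGFBP3 was selected on its own time differences, its counts being lower at the later harvest in both genotypes. The time differences below are therefore a description and carry no test. Of the 9 genes, 7 passed a filter on low counts that kept 18289 genes; IGFBP4 and IGFBP7 did not pass it.

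RNA was sequenced from 12 poly-A selected libraries in 4 groups of 3 biological replicates. Wild-type (WT) cells and cells with a CRISPR-Cas9 knock-out (KO) of MTHFD2, a mitochondrial enzyme of folate-dependent one-carbon metabolism, were each harvested at an initial time, for the knock-out right after it was made, and at a final time after 2 months of culture. All cells grew in DMEM with fetal bovine serum, which itself brings IGFs and binding proteins into the medium. The knock-out is a single clone, so a difference between genotypes cannot be told apart from a difference between this clone and the wild-type cells. Its 3 libraries at each harvest thus repeat measurements of that clone. The harvests also differ in any batch of handling that went with them, which cannot be told apart from time in culture.

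Totals ran from 38597809 to 40017561 counts per library. MTHFD2 itself stood at 406, 457 and 375 CPM (library-size-scaled counts, with TMM factors) in the initial and 319, 368 and 379 CPM in the final wild-type libraries. In the knock-out it stood at 128, 138 and 146 CPM at the initial and 155, 123 and 133 CPM at the final harvest. It was lower in every knock-out library, with log2 fold changes of -1.59 (SE 0.11, adjusted p = 3e-08) initially and -1.38 (SE 0.11, adjusted p = 1.09e-07) finally in edgeR's quasi-likelihood test. Epithelial markers gave a summed level of 2207 to 3227 CPM per library, although CDX1, an intestinal transcription factor, had at most 3 counts in any library. The 8 genes of the fibroblast list summed to 41.9 to 82 CPM, most of it from the collagen gene COL1A1 (36.2 to 77.3 CPM); COL1A2, DCN and LUM had at most 3 counts in any library. The 6 endothelial or blood genes summed to 1.3 to 2.24 CPM, with VWF at 33 to 69 counts and PTPRC, CD3E and CDH5 at no more than 3 counts.

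IGF1 and IGF2 act through IGF1R, a receptor tyrosine kinase that signals to the PI3K-AKT and MAPK pathways. IGF2R, the cation-independent mannose 6-phosphate receptor, binds IGF2 and carries it to lysosomes. The binding proteins are secreted, hold IGFs with high affinity and so limit or prolong their access to the receptor; IGFBP3 is the main carrier in blood and also has actions that do not need IGF, and IGFBP6 prefers IGF2. In colon epithelium IGFBP3 is known as a gene that restrains growth, and IGF2 as a gene that is overexpressed through loss of imprinting in some tumours.

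The promoters of the 3 binding proteins whose levels differed most between groups are shown so that their base composition can be compared. RefSeq (GRCh38.p14) gave a promoter for 6 of the 9 genes, and IGFBP2, IGFBP7 and IGF2 had no match. Each stretch is the 250 bases before the RefSeq start, 5′ to 3′ on the gene's strand, and capitals mark a GC box (GGGCGG), read on either strand.
IGFBP3: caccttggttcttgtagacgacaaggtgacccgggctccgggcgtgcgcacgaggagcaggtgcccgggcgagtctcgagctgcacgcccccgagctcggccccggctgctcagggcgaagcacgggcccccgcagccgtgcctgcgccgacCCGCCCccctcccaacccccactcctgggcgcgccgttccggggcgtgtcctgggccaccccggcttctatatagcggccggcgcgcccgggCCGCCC
IGFBP5: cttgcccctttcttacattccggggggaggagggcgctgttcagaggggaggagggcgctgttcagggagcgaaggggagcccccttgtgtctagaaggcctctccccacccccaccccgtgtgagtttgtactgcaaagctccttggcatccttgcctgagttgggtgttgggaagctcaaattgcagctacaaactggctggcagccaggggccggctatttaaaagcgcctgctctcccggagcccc
IGFBP6: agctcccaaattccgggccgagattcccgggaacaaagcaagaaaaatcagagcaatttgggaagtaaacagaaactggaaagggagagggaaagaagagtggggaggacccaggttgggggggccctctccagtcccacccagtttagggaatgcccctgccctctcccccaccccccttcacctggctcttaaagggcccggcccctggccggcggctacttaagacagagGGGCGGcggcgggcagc

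The IGFBP3 stretch lies at chr7:45921273-45921522 on the minus strand, the IGFBP5 stretch at chr2:216695550-216695799 on the minus strand and the IGFBP6 stretch at chr12:53097417-53097666 on the plus strand. The RefSeq start lay 602 bases inside the table's gene model for IGFBP3 and 231 bases inside it for IGFBP6, and at the model's own start for IGFBP5. IGFBP3 had the richest composition of the 3, with 76% G or C and 32 CpG dinucleotides. IGFBP5 and IGFBP6 each had 61.2%, with 8 and 9 CpG dinucleotides, against medians of 58% and 11 over 35116 promoters of the same length. The search covered a TATA box (TATAAA), the GC box and a CCAAT box (CCAAT) on both strands, motifs found in 10.7%, 42.6% and 32% of those promoters. IGFBP3 held 2 GC boxes, IGFBP6 held 1 and IGFBP5 held none of the 3 motifs.

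IGFBP3 (ENSG00000146674.16, chr7:45912245-45921874, minus strand, GRCh38) was several times lower at the final than at the initial harvest in both genotypes, and did not pass the test between genotypes at either harvest. Wild-type libraries held 5.76, 4.77 and 6.46 CPM at the initial harvest and 1.47, 1.46 and 1.09 CPM at the final harvest. Knock-out libraries held 4.84, 4.86 and 5.46 CPM at the initial harvest and 1.36, 1.5 and 1.66 CPM at the final harvest. All 6 initial libraries stood above all 6 final libraries, while the genotypes overlapped at each harvest. Group means were 5.66 ± 0.848 CPM (SD, n = 3) and 1.34 ± 0.217 CPM in wild type, and 5.06 ± 0.352 CPM and 1.51 ± 0.15 CPM in the knock-out. These levels rest on 193 to 258 and 42 to 56 counts per wild-type library, and on 192 to 214 and 54 to 66 counts per knock-out library, initial before final.

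The time difference of IGFBP3 was -2.08 on the log2 scale (SE 0.16, 95% interval -2.42 to -1.74), or 4.23-fold lower, in wild type. In the knock-out it was -1.74 (SE 0.16, 95% interval -2.08 to -1.41), or 3.35-fold lower. Ordered by this difference from the lowest, IGFBP3 was number 12 of 18289 genes in wild type and number 10 in the knock-out. These values were used to pick the gene and are given without a test. In bulk RNA, fewer cells with the transcript and less transcript per cell cannot be told apart.

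The comparisons that the choice of IGFBP3 did not use directly were those of genotype, although they share libraries with the time differences. At the initial harvest the knock-out differed from wild type by -0.16 (SE 0.14, 95% interval -0.46 to 0.13, adjusted p = 0.458 in edgeR's quasi-likelihood test) and at the final harvest by 0.17 (SE 0.18, 95% interval -0.21 to 0.56, adjusted p = 0.581). Neither passed the threshold, an adjusted p under 0.05 after Benjamini-Hochberg adjustment over all genes tested. The change of the genotype difference between harvests, which is the knock-out minus the wild-type time difference, was 0.34 (SE 0.23). It is made of the values that picked IGFBP3 and is given without a test.

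**Figure D1:**
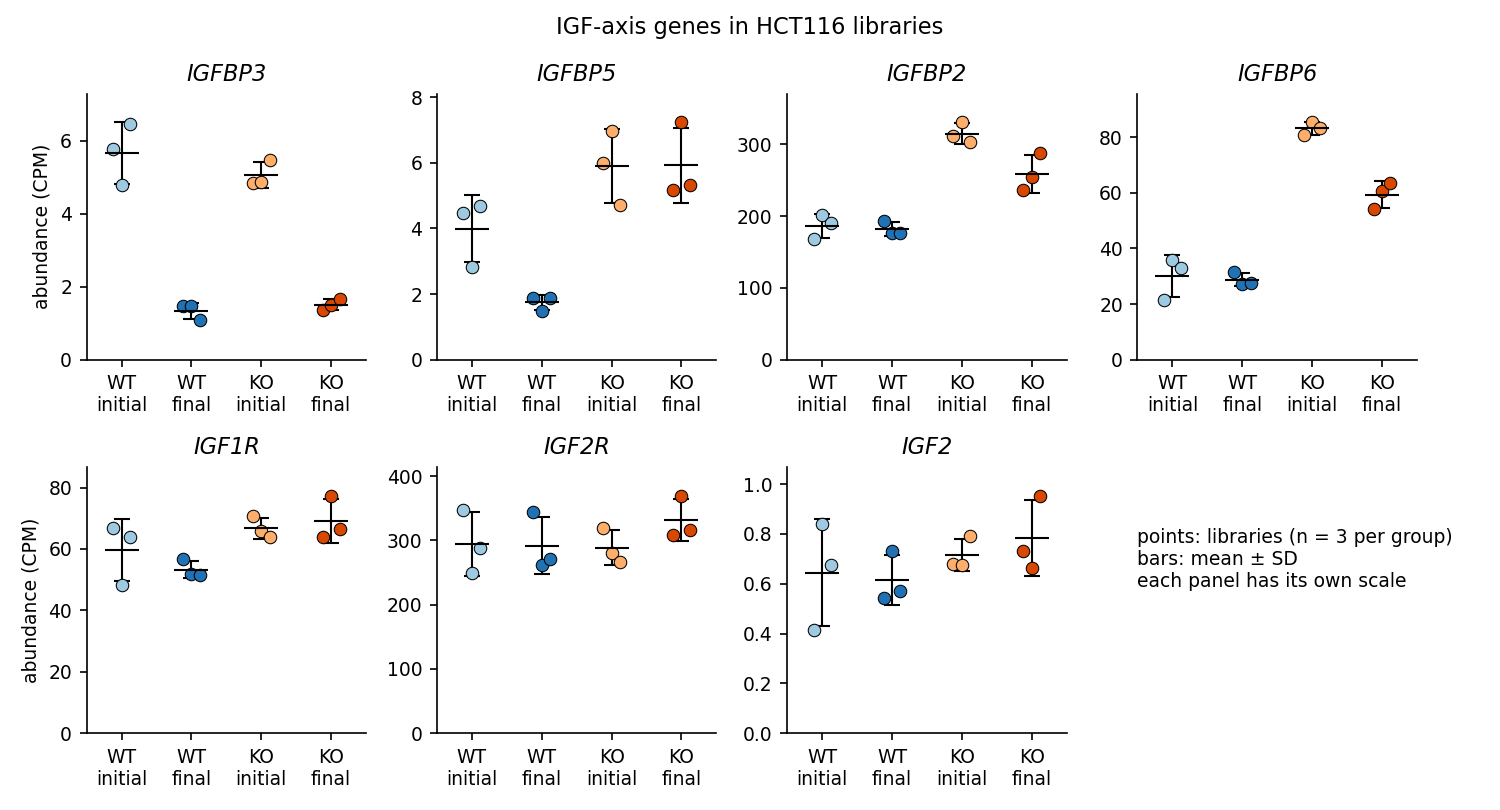
Abundance in CPM (y axes, each with its own scale from 0) of the 7 genes that passed the filter, by group (x axis). Points are the 3 libraries of a group and bars the mean ± SD; IGFBP3 is low in both final groups, IGFBP5 is low in the final wild-type libraries (1.49 to 1.89 CPM), and IGFBP2 and IGFBP6 are higher in knock-out than in wild-type libraries at both harvests.

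IGFBP5 (ENSG00000115461.5, chr2:216672105-216695549, minus strand), a binding protein that also attaches to the extracellular matrix, was 3.38-fold higher in the knock-out than in wild type at the final harvest. Wild-type libraries held 4.47, 2.82 and 4.68 CPM at the initial and 1.87, 1.49 and 1.89 CPM at the final harvest. Knock-out libraries held 5.98, 6.97 and 4.72 CPM at the initial and 5.18, 7.24 and 5.32 CPM at the final harvest. The final wild-type group was the low group, below every library of the other 3 groups, and the initial groups of the genotypes came close to each other (4.68 against 4.72 CPM) without overlapping.

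At the final harvest the log2 difference of IGFBP5 between genotypes was 1.76 (SE 0.21, 95% interval 1.30 to 2.21, adjusted p = 1.84e-05, edgeR's quasi-likelihood test), and all 3 knock-out libraries were above all 3 wild-type libraries. At the initial harvest it was 0.56 (SE 0.19, 95% interval 0.15 to 0.97, adjusted p = 0.0526), just short of the threshold. Over the alternatives tried, the adjusted p of the initial difference ran from 0.00336 to 0.232, and it passed without WT replicate 1 of the initial harvest (0.65, adjusted p = 0.0408), without KO replicate 3 of the initial harvest (0.70, adjusted p = 0.0351) and without KO replicate 2 of the final harvest (0.57, adjusted p = 0.036). It also passed in DESeq2 (adjusted p = 0.0306), with RLE size factors (adjusted p = 0.0492) and without the filter.

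The interaction of genotype and time, the change of the genotype difference between harvests, was for IGFBP5 1.19 (SE 0.29, 95% interval 0.58 to 1.81), with an adjusted p of 0.0599 in edgeR's quasi-likelihood test, so the change of the genotype difference did not pass the threshold. In DESeq2 it was 1.20 with an adjusted p of 0.00485, and over all alternatives the adjusted p ran from 4.81e-05 (no filter) to 0.185. Without WT replicate 2 of the initial harvest, the lowest IGFBP5 library of its group, the value was 1.39 with an adjusted p of 0.00714. The 2 time differences, given as a description, were -1.19 (SE 0.22), or 2.28-fold lower, in wild type and 0.01 (SE 0.19) in the knock-out. Averaged over both harvests, IGFBP5 was higher in the knock-out by 1.16 (SE 0.14, adjusted p = 1.25e-05).

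IGFBP2 (ENSG00000115457.10, chr2:216632828-216664436, plus strand), the neighbour of IGFBP5 on the opposite strand and the binding protein with the most transcript per length in these cells, was higher in the knock-out at both harvests. Wild-type libraries held 168, 202 and 190 CPM at the initial and 193, 176 and 176 CPM at the final harvest. Knock-out libraries held 312, 331 and 303 CPM at the initial and 236, 255 and 288 CPM at the final harvest. The genotypes did not overlap at either harvest, and the final knock-out libraries stood below the initial ones. The genotype difference was 0.76 (SE 0.093, 95% interval 0.56 to 0.95, adjusted p = 2.02e-05, 1.69-fold) at the initial harvest in edgeR's quasi-likelihood test. By the final harvest it was 0.51 (SE 0.093, 95% interval 0.31 to 0.71, adjusted p = 0.000869, 1.43-fold). The interaction was -0.25 (SE 0.13, adjusted p = 0.472).

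IGFBP6 (ENSG00000167779.9, chr12:53097436-53102345, plus strand) showed the largest initial genotype difference among the 7 genes. Wild-type libraries held 21.5, 35.8 and 33 CPM at the initial and 31.6, 27.3 and 27.7 CPM at the final harvest. Knock-out libraries held 80.8, 85.4 and 83.1 CPM at the initial and 54, 60.5 and 63.5 CPM at the final harvest. Every knock-out library was above every wild-type library, and WT replicate 1 of the initial harvest was the lowest of all 12. The log2 difference was 1.46 (SE 0.14, 95% interval 1.17 to 1.76, adjusted p = 1.28e-06, 2.76-fold) at the initial harvest in edgeR's quasi-likelihood test. The final difference was 1.04 (SE 0.14, 95% interval 0.75 to 1.34, adjusted p = 4.74e-05, 2.06-fold). The interaction was -0.42 (SE 0.19, adjusted p = 0.387). Described over time, IGFBP6 differed by -0.06 in wild type and by -0.49 (SE 0.14) in the knock-out.

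IGFBP4 (ENSG00000141753.7, chr17:40443450-40457725), an inhibitory binding protein cleaved by the protease PAPPA, had 0 to 3 counts per library. IGFBP7 (ENSG00000163453.11, chr4:57030773-57110385), a secreted relative with low affinity for IGF, had 0 to 5 counts per library. Neither level can be compared between groups at this depth. IGFBP7 overlaps POLR2B on the other strand, which had 10753 to 12399 counts, and whether the counting used strand is not given in the sources used here. The liver-type carrier IGFBP1, which lies next to IGFBP3, had at most 1 count in any library.

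IGF2 (ENSG00000167244.21, chr11:2129112-2141238, minus strand) was the only ligand with more than a stray count, since IGF1 had at most 1 count and INS had 0 counts in every library. It held 17 to 38 counts per library. Wild-type libraries held 0.415, 0.84 and 0.676 CPM at the initial and 0.543, 0.73 and 0.569 CPM at the final harvest. Knock-out libraries held 0.681, 0.677 and 0.791 CPM at the initial and 0.73, 0.663 and 0.954 CPM at the final harvest. All groups overlapped, and the genotype differences of 0.15 (SE 0.26, adjusted p = 0.736) and 0.35 (SE 0.26, adjusted p = 0.416) did not pass edgeR's quasi-likelihood test. The antisense gene IGF2-AS on the other strand had 11 to 26 counts, close to the number for IGF2, and without a stated strand setting the reads of the pair cannot be told apart. On its own strand IGF2 is overlapped by 4 genes, among them INS-IGF2, with at most 1 count in any library. Whether reads shared with these genes were lost to IGF2 was not tested.

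IGF1R (ENSG00000140443.15, chr15:98648539-98964530, plus strand) was 1.3-fold higher in the knock-out at the final harvest. Wild-type libraries held 66.9, 48.3 and 63.9 CPM at the initial and 56.6, 51.9 and 51.5 CPM at the final harvest. Knock-out libraries held 70.6, 65.8 and 64 CPM at the initial and 63.8, 77.4 and 66.6 CPM at the final harvest. The genotypes overlapped at the initial harvest and were apart at the final harvest. The difference was 0.16 (SE 0.11, 95% interval -0.07 to 0.40, adjusted p = 0.339) at the initial harvest in edgeR's quasi-likelihood test. The later difference was 0.38 (SE 0.11, 95% interval 0.14 to 0.61, adjusted p = 0.0244). That call was lost without WT replicate 2 (0.35, adjusted p = 0.0893), WT replicate 3 (0.35, adjusted p = 0.0865) or KO replicate 2 (0.29, adjusted p = 0.117) of the final harvest, and its adjusted p ran from 0.0035 to 0.117 over the alternatives. Averaged over both harvests the difference was 0.27 (SE 0.078, adjusted p = 0.0149).

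IGF2R (ENSG00000197081.16, chr6:159969082-160113507, plus strand) had the highest counts of the 2 receptors. Its levels were 348, 249 and 288 CPM in the initial and 344, 262 and 271 CPM in the final wild-type libraries. They were 320, 280 and 267 CPM in the initial and 309, 370 and 317 CPM in the final knock-out libraries. The groups overlapped at both harvests. The genotype difference was -0.03 (SE 0.13, 95% interval -0.31 to 0.24, adjusted p = 0.901) at the initial and 0.18 (SE 0.13, 95% interval -0.09 to 0.46, adjusted p = 0.378) at the final harvest in edgeR's quasi-likelihood test.

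**Figure D2:**
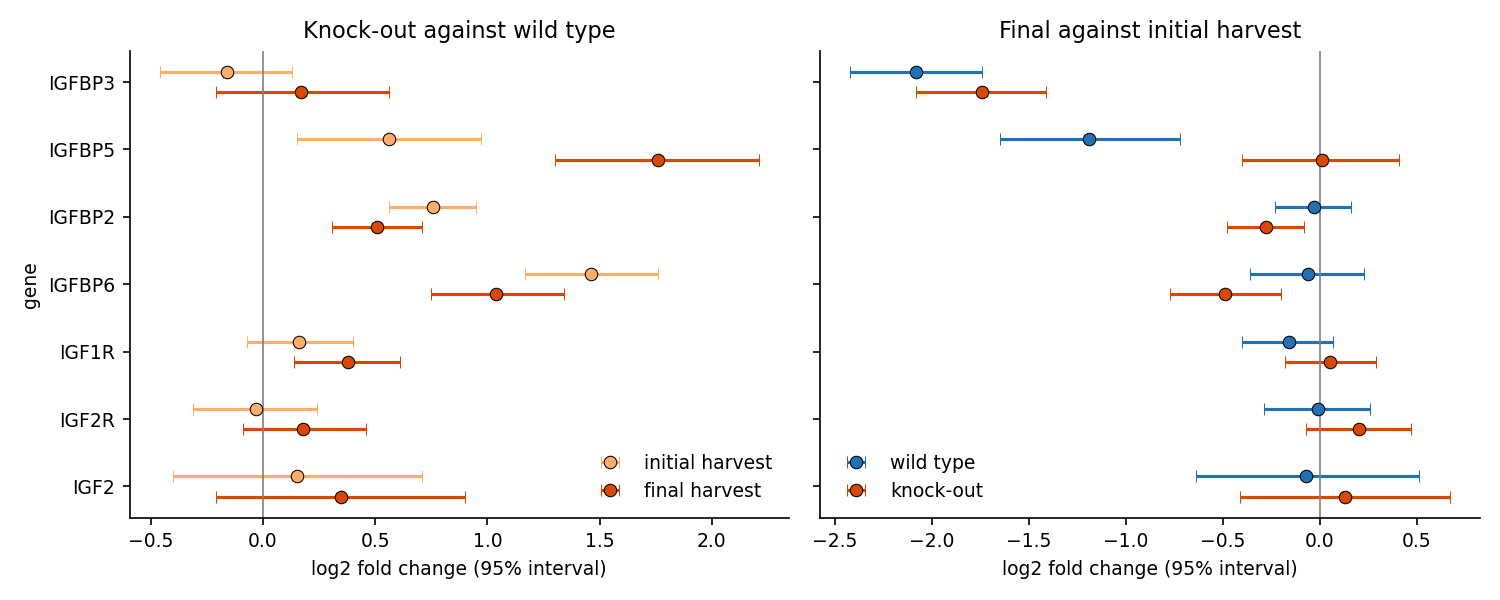
Log2 fold change (x axes) with its 95% interval for each gene (y axis), between genotypes at each harvest (left) and between harvests in each genotype (right, a description without a test). IGFBP2 and IGFBP6 lie above 0 in both genotype comparisons, IGFBP5 at 0.56 and 1.76, and IGFBP3 lies near 0 on the left and at -2.08 and -1.74 on the right.

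Counted together, 2 of the 7 genes passed the test at the initial harvest (IGFBP2 and IGFBP6), both higher in the knock-out, where 8.55% of all genes tested were called higher and 11.3% lower. Later, at the final harvest, 4 of 7 passed (IGFBP2, IGFBP5, IGFBP6 and IGF1R), again all higher, against 8.38% called higher and 10.2% lower among all genes. The same 4 genes passed in the average over both harvests, where 14.0% of all genes were called higher and 16.1% lower. None was called lower in any of these comparisons. The median log2 difference of the 7 genes was 0.16 initially and 0.38 finally, with medians over all genes of 0.000 and -0.001.

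Of the 6 tested genes besides IGFBP3, 0 passed the interaction in edgeR's quasi-likelihood test, where 0.809% of all genes were called higher and 0.476% lower. At an unadjusted p under 0.05 there were 2, IGFBP5 and IGFBP6, with opposite signs. The shares above are at an adjusted p, and the share at this looser threshold is not given here, so nothing is read from the 2. DESeq2 called 1, IGFBP5, at an adjusted p under 0.05, and 464 genes in all. Over time, the libraries of the 2 harvests did not overlap for IGFBP3 and IGFBP5 in wild type (2 of 7, both lower at the final harvest). They did not overlap for IGFBP2, IGFBP3 and IGFBP6 in the knock-out (3 of 7, all lower). Among all genes, 11.4% were lower and 10.8% higher without overlap in wild type, and 11.3% were lower and 11.9% higher in the knock-out. IGFBP3 was picked on these time differences and the other genes as its family, so nothing is read from these counts.

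Levels of different genes were compared per length, as CPM per kilobase of the gene's length in the table (RPKM). In the initial wild-type libraries the order of means was IGFBP2 (39.3 RPKM), IGFBP6 (22.4), IGF2R (13.1), IGF1R (4.28), IGFBP3 (1.24), IGFBP5 (0.617), IGF2 (0.103), IGFBP7 (0.0343) and IGFBP4 (0.00378), and no neighbours in it overlapped. The first 4 kept their places in all groups, with IGFBP2 at 38.4, 66.5 and 54.7 RPKM and IGFBP6 at 21.4, 61.7 and 44.1 RPKM in the final wild-type, initial knock-out and final knock-out libraries. IGFBP3 and IGFBP5 overlapped in the final wild-type group (0.293 and 0.27 RPKM) and in the initial knock-out group (1.11 and 0.911 RPKM). They stood in the reverse order in the final knock-out group, with IGFBP5 at 0.915 and IGFBP3 at 0.33 RPKM. IGFBP7 and IGFBP4 also overlapped in the final wild-type group. They had at most 5 and 3 counts in any library, so their places in the order are not secure in any group.

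**Figure D3:**
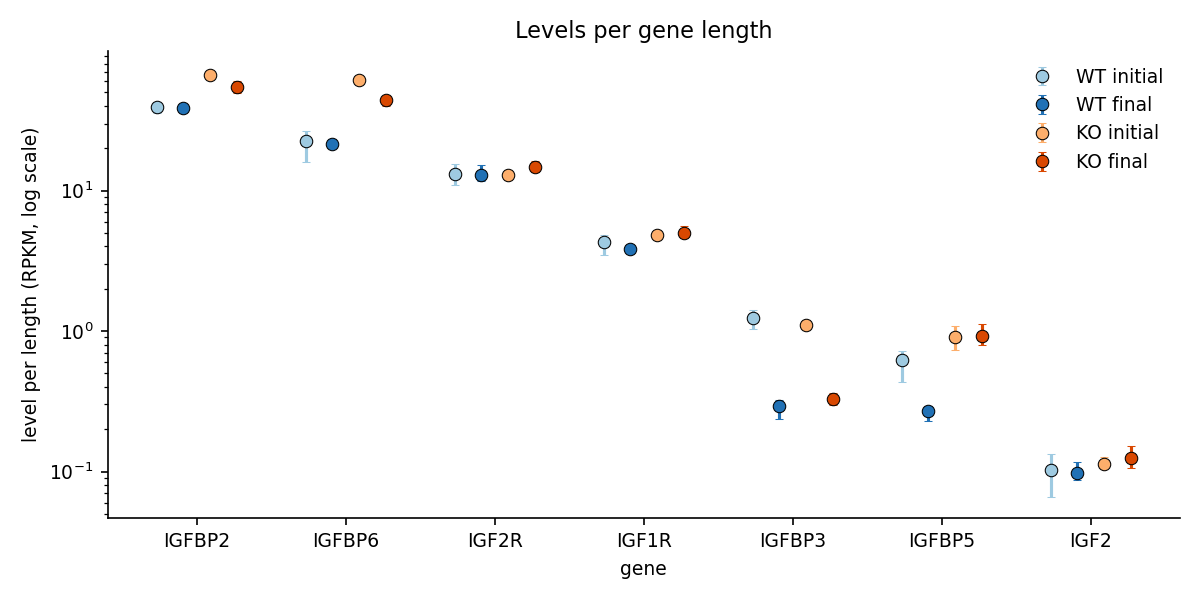
Level per length in RPKM (y axis, log scale) of the 7 genes that passed the filter (x axis), in the 4 groups. Points are group means and bars the range of the 3 libraries; IGFBP2 and IGFBP6 lead in every group, and IGFBP3 changes place with IGFBP5 between the initial wild-type and the final knock-out groups.

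Most binding protein transcript was IGFBP2 and IGFBP6. The 6 binding proteins summed to 53.4, 70.6 and 66.7 RPKM in the initial and 64.9, 58.1 and 58.3 RPKM in the final wild-type libraries. In the knock-out the sum was 128, 135 and 128 RPKM at the initial and 91, 100 and 109 RPKM at the final harvest, above every wild-type library. IGFBP6 made up 29.9% to 37.7% of the sum in wild-type and 43.3% to 48.4% in knock-out libraries. The share of IGFBP3 was 1.48% to 2.36% in initial wild-type libraries and 0.408% to 0.55% in final ones. In the knock-out its share was 0.785% to 0.937% at the initial and 0.327% to 0.333% at the final harvest. These sums are a description of the values above.

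Of 66 other genes of the IGF pathway, 57 passed the filter. At the initial harvest 6 were higher and 18 lower in the knock-out (8.55% and 11.3% of all genes), and at the final harvest 4 were higher and 11 lower (8.38% and 10.2% of all genes). The 6 and the 4 higher genes of 57 lie near the shares of all genes. These shares of all genes are also the background for the counts by role that follow. The median of the 57 was -0.14 initially and -0.06 finally. Without WT replicate 3 of the final harvest the final count was 9 instead of 15. Over time, 4 were higher and 6 lower at the final harvest in wild type (3.05% and 3.42% of all genes), and 0 were higher and 1, SOCS3, lower in the knock-out (0.837% and 0.640% of all genes).

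Of 8 receptor adaptors tested, 5 were lower at the initial harvest (IRS1, GRB10, GRB14, SOS1 and GAB1), where 11.3% of all genes were lower, and 3 at the final harvest (IRS1, GRB10 and GRB14), where 10.2% were. None was higher, and the initial SOS1 call had an adjusted p of 0.0499. IRS1, the docking protein that couples IGF1R to PI3K, held 172, 165 and 184 CPM in the initial and 219, 234 and 232 CPM in the final wild-type libraries. It held 93.5, 98.4 and 93.7 CPM in the initial and 98.1, 95.4 and 95.6 CPM in the final knock-out libraries, all below the wild-type libraries. Its difference was -0.87 (SE 0.072, adjusted p = 2.97e-07) initially and -1.24 (SE 0.073, adjusted p = 3.75e-09) finally in edgeR's quasi-likelihood test. GRB10, an adaptor that restrains the receptor, differed by -0.66 (SE 0.073, adjusted p = 6.11e-06) initially and by -0.22 (adjusted p = 0.0456) finally. The final GRB10 call was lost when any of 9 libraries was left out (adjusted p of 0.0549 to 0.152), among them all knock-out libraries. It was also lost with the replicate block (adjusted p = 0.0744), RLE size factors (adjusted p = 0.0517), no filter (adjusted p = 0.185) and only the groups compared (adjusted p = 0.114).

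In the PI3K-AKT-mTOR arm, 2 of 17 genes were higher and 1 lower at each harvest, near the shares among all genes (8.55% and 11.3% initially, 8.38% and 10.2% finally). PIK3R1, the regulatory subunit of PI3K, held 31.9, 26.5 and 31.4 CPM in the initial and 19.5, 20.6 and 21.1 CPM in the final wild-type libraries. It held 58.5, 58.5 and 61 CPM in the initial and 64.5, 57.4 and 56.1 CPM in the final knock-out libraries. PIK3R1 was thus higher in every knock-out library, by 0.99 (SE 0.088, adjusted p = 6.13e-07) initially and 1.54 (SE 0.09, adjusted p = 3.75e-09) finally in edgeR's quasi-likelihood test. EIF4EBP1, the translation repressor that mTOR phosphorylates, differed by -0.76 (SE 0.18, adjusted p = 0.00597) and -0.61 (SE 0.18, adjusted p = 0.0232); the final call was lost without WT replicate 2 or 3 or KO replicate 1 or 2 of that harvest, with adjusted p from 0.0699 to 0.119. The FOXO genes were counted apart from this arm. Of 3 tested, 2 were lower (FOXO3 and FOXO4) and 0 higher at each harvest, against the same shares of all genes. FOXO1 was not called, with differences of -0.13 (adjusted p = 0.468) and 0.17 (adjusted p = 0.347) in edgeR's quasi-likelihood test. FOXO3, a transcription factor that AKT keeps out of the nucleus, was lower in the knock-out, with differences of -0.38 (adjusted p = 0.00378) and -0.40 (adjusted p = 0.00231). Its relative FOXO4 differed by -0.44 (adjusted p = 0.00332) and -0.30 (adjusted p = 0.0343); the final FOXO4 call was lost without WT replicate 3 or KO replicate 1 or 2 of that harvest (adjusted p of 0.0941 to 0.177), without the filter (adjusted p = 0.0804) and with only the groups compared (adjusted p = 0.0811).

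Of 5 negative regulators of the receptor, 1 was higher (SOCS1) and 1 lower (NEDD4) at the initial harvest, and 0 higher and 1 lower (NEDD4) at the final harvest, against the same shares of all genes. SOCS1 rests on few reads, 13 to 53 counts per library. Its means were 0.461 and 1.07 CPM in initial and final wild type, and 1.17 and 1.09 CPM in the knock-out. NEDD4, a ubiquitin ligase, averaged 30 ± 2.46 and 25.2 ± 0.861 CPM (SD, n = 3) in initial and final wild type, and 19.2 ± 1.49 and 19.8 ± 1.34 CPM in the knock-out. Its difference was -0.65 (adjusted p = 8.45e-05) and -0.34 (adjusted p = 0.0139); the final call was lost without WT replicate 3 (adjusted p = 0.0511) or KO replicate 3 (adjusted p = 0.0567) of that harvest.

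Among 5 tested proteases of binding proteins and their inhibitors, 4 were lower at the initial harvest (STC1, STC2, ADAM9 and ADAM28; 11.3% of all genes) and 1 at the final harvest, STC2 (10.2% of all genes). STC1, with 2 to 64 counts per library, and ADAM28, with 6 to 40, rest on few reads. STC2, a secreted inhibitor of PAPPA, averaged 180 ± 8.67, 117 ± 18.2, 97.3 ± 2.03 and 89.5 ± 5.04 CPM (SD, n = 3) in initial wild type, final wild type, initial knock-out and final knock-out. Its genotype difference was -0.89 (SE 0.097, adjusted p = 5.67e-06) and -0.39 (SE 0.096, adjusted p = 0.0084) in edgeR's quasi-likelihood test. Of the 6 tested ligands and ligand regulators, IGF2BP3, an RNA-binding protein that binds IGF2 mRNA, was lower, with differences of -0.51 (adjusted p = 8.39e-05) and -0.97 (adjusted p = 5.97e-08). The imprinted RNA H19 and the transcription factor PLAGL1 were higher at both harvests. H19 and PLAG1 were named after their values were seen, because they lay below the level set for named genes. H19 had only 8 to 33 and PLAG1 only 15 to 67 reads per library. PLAG1, a transcription factor, differed by -1.05 (SE 0.3, adjusted p = 0.0221) initially and -0.06 (adjusted p = 0.935) finally in edgeR's quasi-likelihood test. The initial PLAGL1 call was lost without WT replicate 2 or 3 or any KO replicate of that harvest (adjusted p of 0.0742 to 0.139). Of 4 other receptors tested (INSR, INSRR, TMEM219 and LRP1), 1 was lower at the initial harvest (11.3% of all genes) and 0 at the final harvest (10.2% of all genes). None of the 4 was higher. INSR, the insulin receptor, was lower at the initial harvest, with a difference of -0.34 (adjusted p = 0.0319). That call was lost when any single initial library except WT replicate 2 was left out (adjusted p of 0.0541 to 0.139). At the final harvest INSR differed by -0.22 (adjusted p = 0.18).

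**Figure D4:**
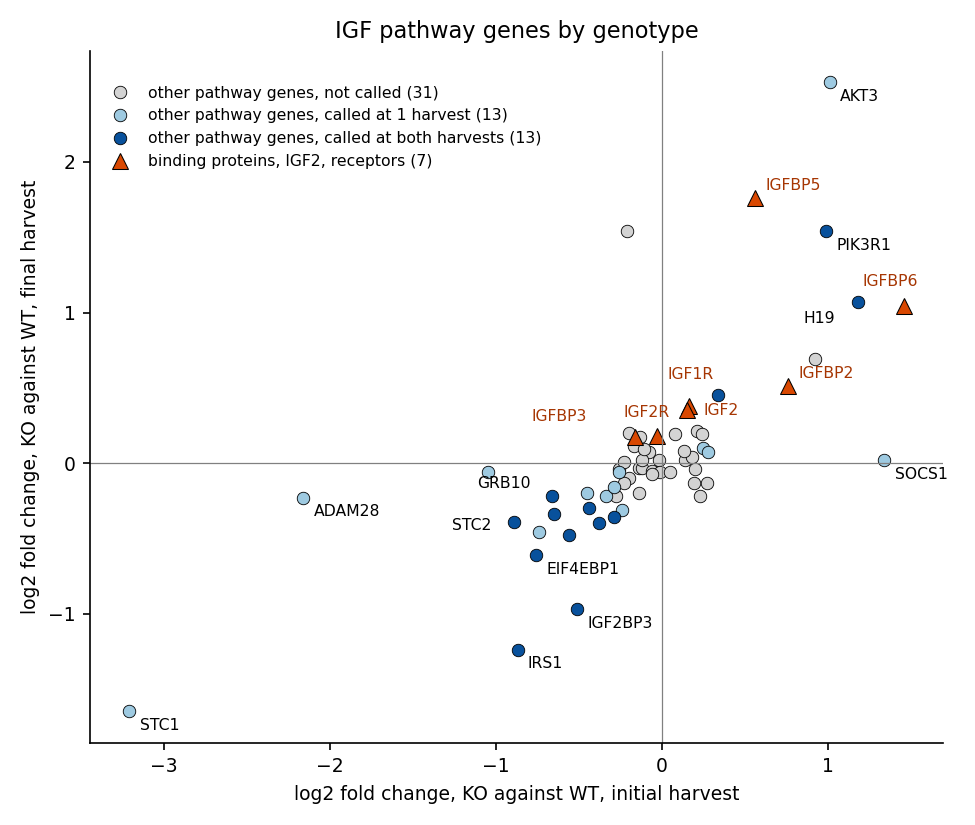
Log2 fold change between knock-out and wild type, initially (x axis) and finally (y axis), for the 57 other IGF pathway genes (circles, darker where called at more harvests) and the 7 binding protein, ligand and receptor genes (triangles). IGFBP2, IGFBP5 and IGFBP6 lie in the upper right with PIK3R1, and IRS1, STC2, EIF4EBP1 and IGF2BP3 in the lower left.

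Of 8 tested factors known to act on IGFBP3 transcription, 1 was higher (RXRA) and 2 lower (SMAD3 and SP1) in initial knock-out libraries, and 0 were higher and 2 lower (SMAD3 and HIF1A) in final ones. Among all genes, 8.55% were higher and 11.3% lower initially, and 8.38% and 10.2% finally. SMAD3, a transcription factor of TGF-beta signalling, averaged 123 ± 1.86 CPM in initial and 147 ± 5.83 CPM in final wild type (SD, n = 3), and 101 ± 0.626 and 114 ± 3.54 CPM in initial and final knock-out. It was lower in the knock-out, with differences of -0.29 (SE 0.068, adjusted p = 0.00599) initially and -0.36 (SE 0.068, adjusted p = 0.00106) finally in edgeR's quasi-likelihood test. RXRA, a retinoid X receptor, differed by 0.28 (SE 0.079, adjusted p = 0.0197) initially and 0.07 (adjusted p = 0.609) finally. The initial RXRA call was lost without WT replicate 1 or 3 or KO replicate 2 or 3 of that harvest (adjusted p of 0.0517 to 0.104) and without the filter (adjusted p = 0.0555).

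None of the tested genes near IGFBP3 was called over time, which is near the shares of all genes. In wild type 3.05% of all genes were called higher and 3.42% lower, and in the knock-out 0.837% and 0.640%. Of 40 genes within 1 Mb, 8 passed the filter (MYO1G, SNHG15, CCM2, TBRG4, SNORA5A, SNORA5C, SEPTIN7P2 and GTF2IP13), with time differences of -0.44 to 0.10 in wild type and -0.31 to 0.46 in the knock-out. Between genotypes, 8.38% of all genes were called higher in final knock-out libraries. Of the 8 genes, MYO1G, an unconventional myosin with 20 to 52 counts per library, was called higher there (0.92, SE 0.25, adjusted p = 0.0139 in edgeR's quasi-likelihood test). That call was lost without WT replicate 3 (adjusted p = 0.0565) or KO replicate 2 (adjusted p = 0.0732) of the final harvest.

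The 5 genes whose pattern was closest to that of IGFBP3 were KRT7, a simple epithelial keratin, APOBEC3G, a cytidine deaminase, GLIS3, a zinc finger transcription factor, SUSD2, a membrane protein, and CCN2, a matricellular protein. Likeness was the root mean square difference of log2 CPM, centred on each gene's mean, over the 12 libraries, among 13888 genes. It was 0.367 for KRT7, 0.374 for APOBEC3G, 0.468 for GLIS3, 0.5 for SUSD2 and 0.512 for CCN2. The libraries share depth and handling, so this is a description. Over the 4 group means 4 of these 5 genes remained among the closest, but after dividing each gene by its SD only KRT7 did. In wild type the time differences of the 5 genes were -2.04, -1.74, -1.22, -1.58 and -1.48, in the order given. In the knock-out they were -0.85, -1.45, -1.14, -0.63 and -0.63.

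**Figure D5:**
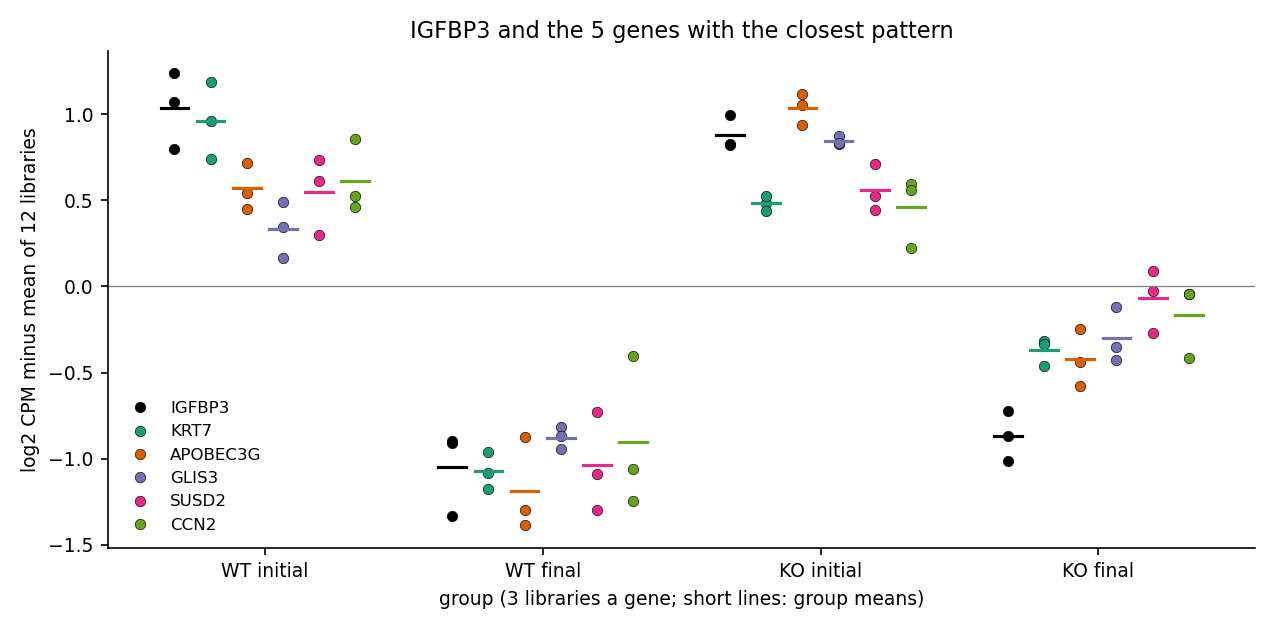
Log2 CPM minus the gene's mean over 12 libraries (y axis) for IGFBP3 and the 5 closest genes, by group (x axis). Points are libraries and short lines group means; all 6 genes are low in the final wild-type group, and in the final knock-out group IGFBP3 lies below the other 5.

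Some markers of cell type moved with genotype as well. Among all genes tested, the shares called were 8.55% higher and 11.3% lower initially, and 8.38% and 10.2% finally. Of 6 tested epithelial markers, 3 were lower in initial knock-out libraries (EPCAM, CDH1 and CLDN7) and 5 at the final harvest, with summed levels of 2622 to 3227 CPM in initial wild-type and 2458 to 2694 CPM in initial knock-out libraries. At the final harvest the sums were 3054 to 3201 CPM in wild-type and 2207 to 2578 CPM in knock-out libraries. Of 4 tested genes on the fibroblast list, PDGFRB and ACTA2 were higher and COL1A1 and COL3A1 lower in initial knock-out libraries, and PDGFRB and ACTA2 were higher and COL1A1 lower in final ones. That list summed to 58.8 to 71.7 CPM in initial and 63.6 to 82 CPM in final wild-type libraries, and to 41.9 to 52.1 and 49.2 to 64.4 CPM in knock-out libraries. The part of these shifts in the genotype differences of IGFBP2, IGFBP5 and IGFBP6 was not tested.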

How the data were processed

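RNA was measured in 12 poly-A libraries of HCT116 cells in 4 groups of 3. The authors deposited raw read counts per gene, which are not normalized; STAR, Subread, featureCounts and hg38 are named in the submitters' processing notes. The annotation release, the strand setting and the treatment of multi-mapping reads are not given in the sources used here. The file's gene length column, another deposited value, served for RPKM. Of 60648 genes, 60462 had a symbol; 5 lines of 1 gene broken by a spreadsheet were left out. All 37318 IDs that share a version with GENCODE 29 had identical coordinates, so positions are on GRCh38.

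Counts were fitted with edgeR 4.0.16 (limma 3.58.1, R 4.3.3): filterByExpr by group (18289 genes), TMM factors, 1 robust quasi-likelihood model with 4 group means, and Benjamini-Hochberg adjustment over all genes tested. Genes were called at an adjusted p under 0.05. CPM are TMM-scaled, and the common biological coefficient of variation was 9.77%. The fit code was also run on simulated counts with the same spread for all genes and changes only in well-counted genes. That run does not cover the recovery of changes in genes with few reads. Replicates are biological per the labels, and no pair of libraries agreed within sampling noise. Intervals (95%) use the fit's degrees of freedom.

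The genes and lists were chosen with earlier results of these data known. Named are MTHFD2, the 9 genes, per pathway role the gene called with the largest difference in each direction in each genotype comparison and the interaction (mean log2 CPM of at least 0), every pathway gene called in the interaction, the 5 genes closest to IGFBP3 (prior count 2 on the log2 scale) and the tested genes within 1 Mb; other names were added after their values were seen. Alternatives were RLE factors, DESeq2 1.42.0, no filter, a stricter filter (CPM of at least 1 in 3 libraries), a non-robust fit, only the groups compared, a replicate block and leaving out each library. Some results on further genes, some of them named by this rule, are not reported here.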

Additional observations from a re-analysis of the deposited data

Results flagged for a closer look

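By edgeR's quasi-likelihood test of the interaction, the genotype difference changed between harvests for 3 of the 57 other pathway genes tested. Of these, 2 were called higher and 1 lower, where 0.809% of all genes were called higher and 0.476% lower. The p-values were adjusted over all genes tested. For PIK3R1 the change was 0.55 on the log2 scale (SE 0.12, adjusted p = 0.0382), since it was lower at the final harvest in wild type (29.9 and 20.4 CPM) and level in the knock-out (59.3 and 59.3 CPM). For IGF2BP3 it was -0.46 (SE 0.1, adjusted p = 0.0324), with means of 62.8 and 95.1 CPM in wild type and 44.1 and 48.5 CPM in the knock-out. For GRB10 it was 0.44 (SE 0.1, adjusted p = 0.0458), with means of 74.5 and 61 CPM in wild type and 47.2 and 52.4 CPM in the knock-out. These 3 calls did not survive most settings that left out a library. KRT7 and SUSD2 were picked for their likeness to IGFBP3 over these libraries, so their changes are a description. For KRT7 the change was 1.19 (SE 0.17), with means of 14.3 and 3.48 CPM in wild type and 10.2 and 5.66 CPM in the knock-out. For SUSD2 it was 0.95 (SE 0.2), with means of 114 and 38.1 CPM in wild type and 114 and 73.9 CPM in the knock-out.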

How the results depend on the processing

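Under the alternatives, 758 values of the 7 genes kept direction and side of the threshold or moved by less than the replicate spread. Of the rest, 9 newly passed the threshold, 3 lost it and 8, uncalled values near 0, changed sign. The 758 include time differences near 0 that changed sign within that spread, such as IGF2 in wild type (-0.3 to 0.17). The 8 changed sign only when a library was left out. The IGF2 difference at the initial harvest ran from -0.08 to 0.39 and its interaction from -0.05 to 0.43. The IGF2R difference at the initial harvest ran from -0.14 to 0.11 and the IGFBP3 average over both harvests from -0.06 to 0.05. The GLIS3 interaction ran from -0.03 to 0.16. IGFBP3's time difference was -2.19 to -1.95 in wild-type and -1.83 to -1.68 in knock-out cells.

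In the interaction, 0 of the 6 tested genes besides IGFBP3 passed in edgeR, 1 in DESeq2, 1 without the filter and 0 to 1 with a library left out (1 without WT replicate 2 of the initial harvest). Of the other pathway genes, 3 passed it in edgeR, 6 in DESeq2, 0 with the replicate block and 0 to 5 with a library left out. At the final harvest the pathway genes called ran from 9 to 17 around 15. Over all genes, the interaction called 235, against 464 in DESeq2, 423 without the filter and 124 to 444 with a library left out. The time comparison in the knock-out called 270, against 599, 484, 728 with only the groups compared and 94 to 463; that in wild type called 1183, against 578 with only the groups compared and 627 to 1399. The initial genotype comparison called 3635 and 2423 without KO replicate 2 of that harvest.

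The replicate numbers did not pair the libraries across all groups: same-numbered libraries of different groups had correlated deviations of -0.59 to 0.534. Differently numbered ones ran from -0.773 to 0.728. With the final knock-out libraries the same-numbered values were -0.59 to 0.187, and among the other groups -0.0404 to 0.534. Groups thus shared deviations that the numbers do not follow throughout, and a block by replicate number does not model these. The replicate block gave IGFBP5 an interaction of 1.20 (adjusted p = 0.0764) and changed no call of the 7 genes. Depth limits IGFBP4, IGFBP7 and IGF2, with at most 38 counts per library. The cause of these shifts was not tested.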
